A study of Sus scrofa with 24 samples.

Results

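Newborn and 4-month-old Iberian x Duroc crossbred pigs (IBxDU, out of Iberian sows mated to Duroc boars) were compared for the transcriptome of Longissimus dorsi (LD), the long muscle of the loin. The libraries are all those that the labels give as IBxDU, 12 of the 24 in the series. They come from 6 males at postnatal day 1 and 6 other males at 4 months of age, with 1 library per pig. The remaining 12 libraries, from purebred Iberian pigs (IB) of the same ages, enter 1 test only. All sows belonged to 1 farm, and the older pigs had eaten a barley and wheat growing diet ad libitum. The paper adds that growing pigs had fasted before slaughter. Age, diet and fasting therefore cannot be told apart. Newborns came from fewer litters than there were animals, which the tests do not allow for.

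Skeletal muscle is born with part of its fetal machinery still in place. Embryonic and cardiac-type isoforms of actin, myosin and other contractile proteins are replaced by adult isoforms around and after birth, and the acetylcholine receptor of the nerve-muscle synapse exchanges its fetal gamma subunit for the adult epsilon subunit. The adult LD is a fast-twitch muscle that draws on glycogen and glycolysis, whereas perinatal muscle leans more on oxidative fuels and is still laying down its connective tissue.

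The deposited values are RPKM, a read count divided by the length of the transcript and the size of the library. They cover 22861 genes, and 17466 of these had a value over 0 in a crossbred library. A group mean above 0.5 RPKM at 1 of the ages or more, after scaling between libraries, was reached by 11994 genes, and these were tested. Library totals were 19.99 to 34.6 M, so that a 2 kb transcript at 0.5 RPKM rested on 19.99 to 34.6 reads or read pairs. Each newborn library was divided by a factor of 1.18 to 1.56 and each older one by 0.477 to 0.926, while the 10 genes with the highest values made up 32.6% ± 2.58 of all RPKM in newborns and 40.4% ± 3.53 in older pigs (SD, n = 6 each). Levels are scaled RPKM unless they are called deposited, and every difference is the log2 of birth over 4 months from limma on log2(scaled RPKM + 0.1), with its standard error. Folds are on that same scale, which understates the change of low genes. In whole-muscle RNA, fewer cells of a type and less RNA per cell cannot be told apart.

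Libraries were of 2 kinds. The listed genes held 99.3 to 99.5% of the library total in newborns 412, 402, 425 and 427 and in the older pigs 732 and 702, and 90.2 to 94.7% in the other 6 libraries. Across the genes tested, which are no independent replicates, the Pearson correlation of log2 levels between libraries of 1 age was 0.929 to 0.979 within a kind and 0.882 to 0.928 across kinds (14 and 16 pairs). Pairs of different age reached 0.829 to 0.913 within a kind and 0.796 to 0.856 across kinds. With age in the model, 898 genes were higher in the kind with the higher share and 114 in the other. The kinds are not evenly spread over the ages, so the counts of many lists are also given within the lower-share libraries (2 newborns against 4 older pigs) and within the higher-share libraries (4 against 2). The part of the kind of library in any result was otherwise not tested.

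Between birth and 4 months the crossbred LD muscle changed broadly, in both directions. At p of at most 0.01 and a 1.5-fold difference, 2248 genes (18.7%) were higher at birth and 2457 (20.5%) at 4 months. These shares are the background for the counts of the lists below. At a Benjamini-Hochberg adjusted p under 0.05 from limma the counts were 2945 and 3067. Every newborn lay above every older pig in 1420 genes (11.8%), and the reverse held in 1784 (14.9%). The largest changes were mostly toward 4 months, with 77 genes at least 10-fold higher then and 39 at birth. The split rests on the scaling. Without it 6733 genes were higher at birth and 637 at 4 months, and the median difference over all genes tested moved from 0.06 to 0.94, so that the balance of many lists also moved toward birth. Counts without scaling stand with the lists they change, with birth first where no direction is named. In the higher-share libraries alone the counts fell to 1018 and 1365.

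**Figure D1:**
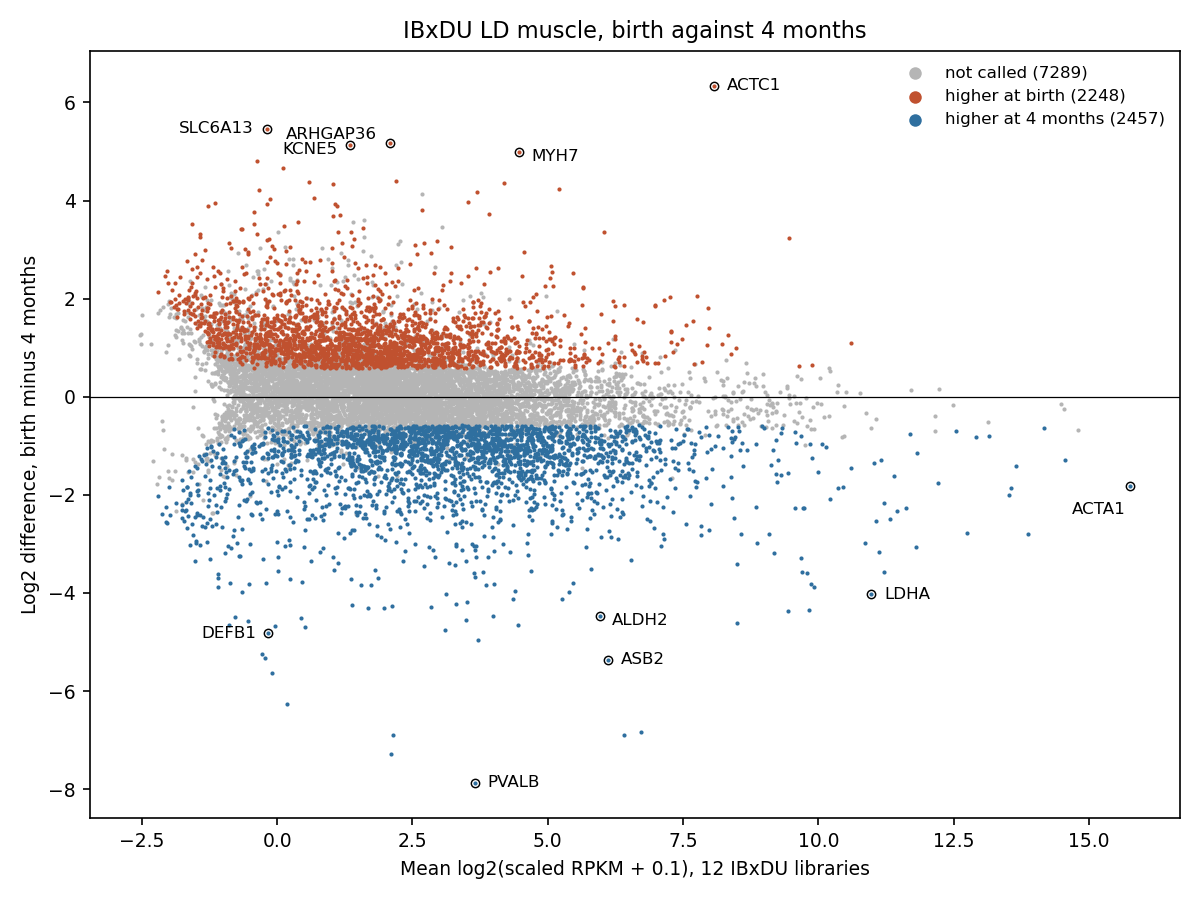
Log2 difference between birth and 4 months (vertical axis, positive is higher at birth) against the mean log2 level over the 12 crossbred libraries (horizontal axis, log2 of scaled RPKM + 0.1) for the 11994 genes tested. Colours mark the 2248 genes called higher at birth and the 2457 called higher at 4 months, and 11 genes are ringed and named. The unnamed points lower than ASB2 are genes that have no symbol here. ACTC1 at the top and PVALB at the bottom stand farthest out.

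At birth, ACTC1 led the genes with the largest differences. ACTC1 (ENSSSCG00000004803), the cardiac alpha-actin that fetal skeletal muscle also uses, ranged from 2016 to 3543 (median 2169) in newborns. In the older pigs it ranged from 18.0 to 141 (median 22.7). The groups were far apart, and the highest older pig, 702, stood above the other 5 of its group. The difference was 6.34 ± 0.42 (adjusted p = 2.3e-07, limma). ACTA1 (ENSSSCG00000010190), the adult skeletal alpha-actin, ranged from 19525 to 42289 (median 30844) at birth. At 4 months it ranged from 67709.7 to 261452 (median 89902). It was 3.54-fold higher at 4 months, with no overlap, and pig 732 lay far above the rest. Its call was lost under quantile normalization and with no filter on low values. Of the deposited RPKM, ACTA1 alone held 6.30% at birth and 11.7% at 4 months, the largest part of any gene at both ages. The ratio of ACTA1 to ACTC1 in a library, which no scaling can change, was 7.26 to 20.9 in newborns and 482 to 9047 in older pigs.

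The other genes that led at birth belong to several tissues and functions. SLC6A13 (ENSSSCG00000030076), a transporter of GABA and taurine, was at 3.72 to 7.82 (median 6.38) in newborns. None of the older pigs exceeded 0.0684. ARHGAP36, known in mouse as an inhibitor of protein kinase A, went from 7.97 to 75.0 (median 31.5) at birth to 0.365 to 1.19 (median 0.573) at 4 months. KCNE5, an accessory subunit of potassium channels, was 35.0-fold higher at birth and MYH7, the slow and cardiac beta myosin heavy chain, 31.6-fold. The ubiquitin ligase RNF207, best known from heart, differed by 4.80 ± 0.54 and the myosin light chain MYL10 by 4.67 ± 0.48. CHAC1, which degrades glutathione and is induced by amino acid and endoplasmic reticulum stress, was at 7.03 to 150.1 (median 12.8) in newborns and at 0.688 to 1.25 (median 0.858) in the older pigs. Newborn 426 held the highest value, and the difference without that library was 3.82. The kinase CDK18 and DLK1, an imprinted ligand-like protein that restrains the differentiation of adipocyte and muscle precursors, complete the first 10 with differences of 4.38 ± 0.32 and 4.36 ± 0.39. The newborn and older groups overlapped in none of these 10 genes, as the rule that named them requires.

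At 4 months the largest difference was in PVALB (ENSSSCG00000000138), parvalbumin, the calcium buffer that speeds the relaxation of fast fibres. PVALB ranged from 0.0824 to 17.5 (median 0.451) in newborns. It ranged from 94.1 to 261 (median 223) in older pigs. Newborn 402 was far above the other 5 newborns, none of which exceeded 1.67, and was still below every older pig. The difference was -7.87 ± 0.89 and stayed between -8.74 and -7.43 whichever library was left out. ASB2 (ENSSSCG00000002467), a subunit of cullin ubiquitin ligases that curbs muscle mass in mouse, rose from 3.56 to 21.7 (median 12.1) to 307 to 555 (median 479.8), a 41.2-fold difference. The other 8 were DEFB1 (a beta-defensin), SLC7A8 (a transporter of large neutral amino acids), GNLY (granulysin of cytotoxic lymphocytes), UBD (a ubiquitin-like modifier induced by interferon), MSS51 (a mitochondrial factor of fast muscle), RXRG (a retinoid X receptor), ALDH2 (mitochondrial aldehyde dehydrogenase) and PPP1R14C (an inhibitor of protein phosphatase 1). Their differences lay between -4.82 for DEFB1 and -4.47 for PPP1R14C. ALDH2 was the most abundant of these, at 9.97 to 18.5 (median 13.3) in newborns and 181 to 429 (median 309.5) at 4 months. A further 9 genes with differences beyond that of DEFB1 have no symbol here (3462 of the genes tested have none), and their function is not known from the files. The most abundant of these was ENSSSCG00000030134, at 3.92 to 26.0 (median 9.50) in newborns and 475 to 1608 (median 1282) in older pigs (-6.83 ± 0.40). ENSSSCG00000021650 was at 3.47 to 18.2 (median 7.70) and 358 to 1387 (median 1086), also without overlap.

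**Figure D2:**
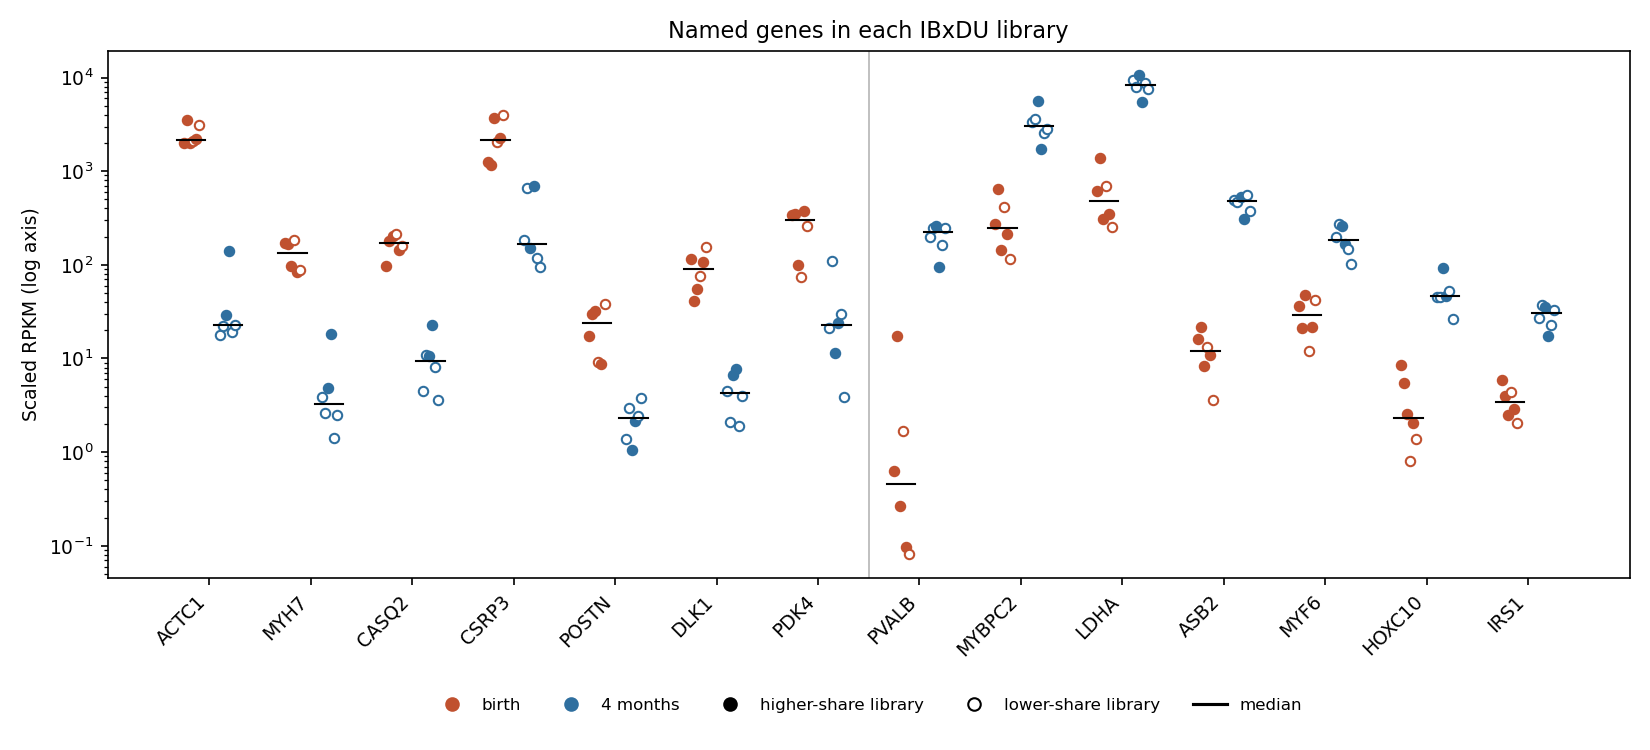
Scaled RPKM (logarithmic vertical axis) of 14 named genes in each crossbred library, newborns and older pigs side by side, with filled points for the libraries of the higher share, open points for the lower share and a bar at the group median. The 7 genes on the left were higher at birth and the 7 on the right at 4 months. PVALB of newborn 402 stands apart from the other newborns.

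The genes of the fast fibre list that were found all moved toward 4 months. Of 12 genes tested, all 12 were called higher at 4 months, with no overlap between the groups in any, and their median difference was -2.09 against 0.06 over all genes. PVALB differed most, followed by MYBPC2 (fast myosin-binding protein C), which went from 116 to 651 (median 245) at birth to 1744 to 5569 (median 3074) at 4 months, a difference of -3.60 ± 0.39. CASQ1, the calsequestrin that stores calcium in the reticulum of fast fibres, differed by -2.50 ± 0.31. MYLK2, the skeletal myosin light chain kinase, and ATP2A1, the fast calcium pump, followed with -2.35 and -2.33. The abundant structural chains moved less. TNNC2 (fast troponin C) was 3.61-fold, MYL1 (fast essential light chain) 2.67-fold and MYL11 (fast regulatory light chain) 2.45-fold higher at 4 months. Without scaling MYL1 and MYL11 were no longer called, and under quantile normalization MYL1, MYL11 and TNNC2 were not called either. Of the 20 symbols on the list 12 were found. MYH1, MYH2, MYH4, TNNT3, TNNI2, ACTN3, MYOZ3 and RYR1 were not found under these symbols and are not analysed here.

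Developmental and cardiac-type sarcomere genes split. Of 12 tested, 6 were higher at birth and 2 at 4 months, with a median of 0.46. Beside ACTC1, the newborn muscle had more MYL7, the atrial regulatory light chain, at 0.891 to 2.83 (median 1.85) against at most 0.135 in any older pig. CSRP3, a LIM protein of the Z-disc, was at 1157 to 4030.2 (median 2157) in newborns and 95.9 to 698 (median 167) at 4 months. The difference of 3.23 ± 0.52 came with no overlap, and pigs 702 and 748 were the highest of the older group. MYH3, the embryonic myosin heavy chain, was at 30.8 to 192 (median 69.0) in newborns and 9.64 to 21.8 (median 13.1) in older pigs (2.43 ± 0.37). MYL4, the embryonic and atrial essential light chain, was low throughout, at 0.217 to 2.78 (median 0.927) in newborns and listed at 0 in 4 of the 6 older pigs. TNNT2, cardiac troponin T, did not pass the test (0.32 ± 0.33). The counts of the list were 8 and 2 without scaling, 7 and 0 under quantile normalization (2 at an unadjusted p under 0.05 toward 4 months in limma), 4 and 2 in the lower-share and 5 and 2 in the higher-share libraries.

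The genes annotated as MYH8 and MYH6 went the other way. MYH8 (ENSSSCG00000018005), the perinatal myosin heavy chain by its name, was at 1811 to 4796 (median 2075) in newborns and 6863 to 10258 (median 8791) at 4 months, 3.40-fold higher in the older pigs. MYH6 (ENSSSCG00000002029), the cardiac alpha chain by its name, was at 398 to 1262 (median 632) and 1169 to 5020.2 (median 2693), and overlapped slightly between the ages. Myosin heavy chain genes are near-identical over long stretches and lie in tandem, and how reads that fit several of them were shared out is not given in the sources used here. The values of MYH8, MYH6 and MYH3 are therefore uncertain as to the gene. The calls for MYH8 and MYH6 were lost under quantile normalization. In MYH6 the highest libraries were newborn 412 and the older pig 732, the same that were highest for the slow troponin TNNI1.

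Slow-fibre genes did not move together. Of 10 tested, 3 were higher at birth and 4 at 4 months, with a median of -0.40. MYH7 (ENSSSCG00000030999) was at 83.6 to 184 (median 132) in newborns and 1.43 to 18.0 (median 3.25) in older pigs, a difference of 4.98 ± 0.47. The reservation on MYH6, its near copy, applies to this gene as well. CASQ2, the cardiac and slow calsequestrin, was at 96.8 to 214 (median 169.9) in newborns and 3.63 to 23.1 (median 9.33) at 4 months, and the ratio of CASQ1 to CASQ2 rose from between 3.12 and 13.4 to between 182 and 1426. MYOZ2, a Z-disc protein of slow fibres, was higher at birth by 1.25 ± 0.35. In the other direction, sarcolipin (SLN), which inhibits the calcium pump, was at 824 to 2179.8 (median 1557) in newborns and 4628 to 9435 (median 6968) at 4 months. Slow troponins C, I and T (TNNC1, TNNI1 and TNNT1) were 3.05-fold, 2.75-fold and 2.56-fold higher at 4 months. The ratio of TNNC2 to TNNC1 overlapped between the ages, from 2.68 to 6.61 in newborns and from 1.62 to 8.66 in older pigs. Calls for the 3 slow troponins were lost without scaling and under quantile normalization, which left 1 gene of the list higher at 4 months.

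**Figure D3:**
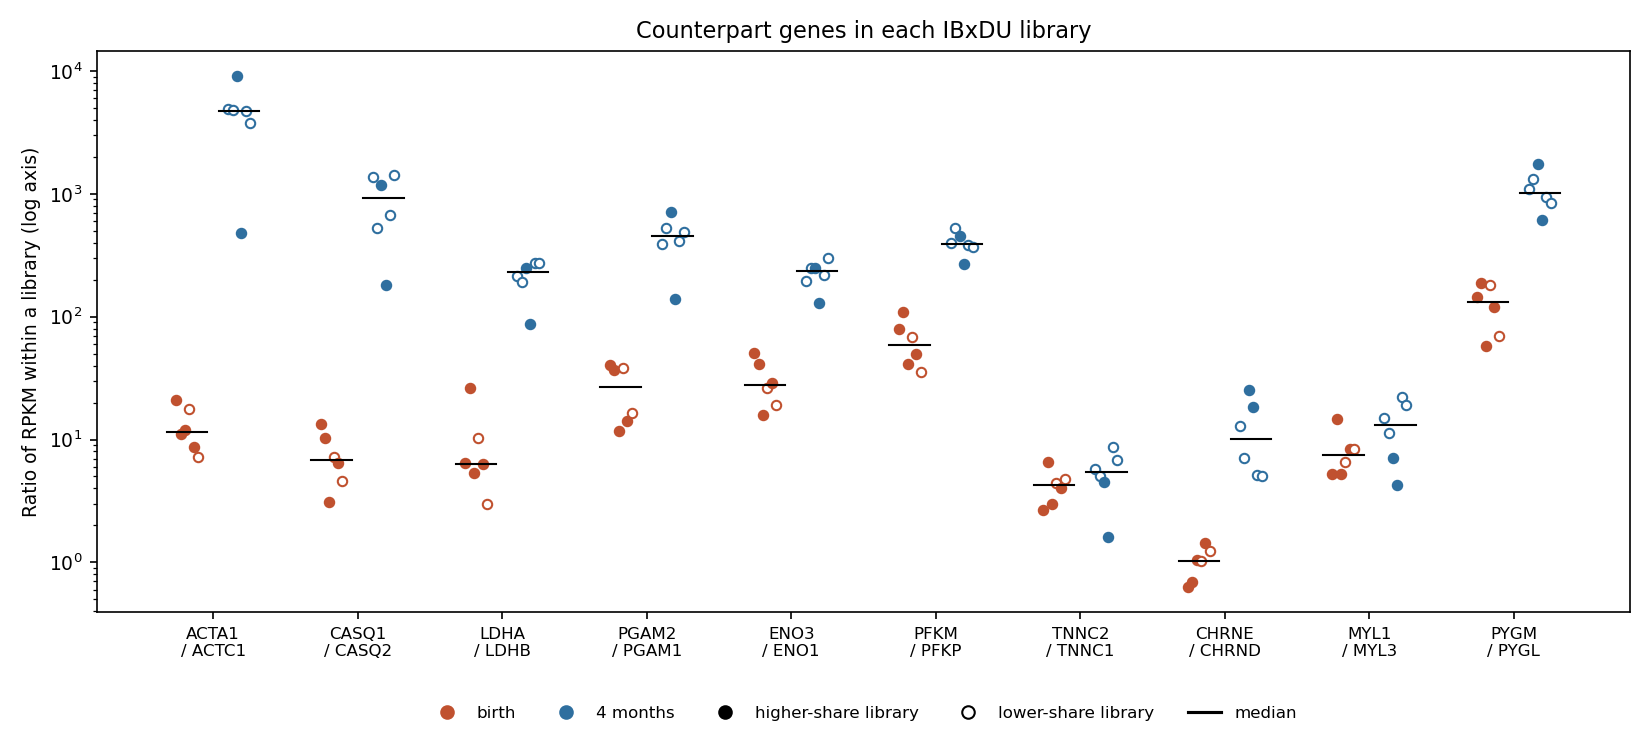
Ratio of deposited RPKM between counterpart genes in each crossbred library (logarithmic vertical axis), newborns and older pigs side by side, with a bar at the median. The ratios are free of any scaling between libraries. ACTA1 over ACTC1, CASQ1 over CASQ2, LDHA over LDHB, PGAM2 over PGAM1, ENO3 over ENO1, PFKM over PFKP, PYGM over PYGL and CHRNE over CHRND do not overlap between the ages, while TNNC2 over TNNC1 and MYL1 over MYL3 do.

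Among myogenic regulators and satellite cell genes, 8 of 14 tested were higher at 4 months and 1 at birth (median -0.74). MYF6, the regulator that prevails in adult fibres, was at 12.1 to 47.6 (median 28.8) in newborns and 101 to 273 (median 183) in older pigs, a difference of -2.73 ± 0.33. MSTN, myostatin, the secreted inhibitor of muscle growth, was at 0.213 to 8.15 (median 1.48) and 2.94 to 12.9 (median 8.71). Newborn 426 overlapped with the older pigs, and the difference was -2.48 ± 0.67. Within either kind of library alone MSTN was not called. CD82, a surface protein of muscle stem cells, was 2.50-fold higher at 4 months with no overlap. The determination factor MYOD1 (0.42 ± 0.18) and the fusion protein MYMK (0.16 ± 0.30) were not called. The balance of this list turned without scaling, to 5 genes higher at birth and 1 at 4 months. Within the lower-share libraries 4 genes of the list were higher at 4 months and within the higher-share libraries 2.

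At the neuromuscular junction 5 of 12 genes were higher at birth and 2 at 4 months (median 0.47). The shares were 41.7% and 16.7%, against 18.7% and 20.5% over all genes tested. COLQ, the collagen tail that anchors acetylcholinesterase in the synapse, was at 1.52 to 6.80 (median 2.86) in newborns and 0.156 to 0.670 (median 0.212) in older pigs (2.97 ± 0.44). The delta subunit of the acetylcholine receptor, CHRND, was at 2.66 to 5.27 (median 3.66) and 0.749 to 1.38 (median 0.973). The beta subunit CHRNB1 was 2.79-fold higher at birth. None of the 3 overlapped between the ages. CHRNE, the adult epsilon subunit, was at 3.23 to 4.27 (median 3.47) in newborns and at 6.84 to 22.1 (median 9.84) at 4 months, a difference of -1.52 ± 0.27. Its call was lost without scaling, yet the ratio of CHRNE to CHRND did not overlap between the ages and went from between 0.634 and 1.43 to between 5.06 and 25.4. CHRNG, the fetal gamma subunit, was already low at birth, at 0.455 to 1.77 (median 0.764), and was at 0.186 to 1.64 (median 0.545) at 4 months, a difference of 0.45 ± 0.43 that did not pass the test. MUSK, the receptor kinase of the synapse, followed the kind of library, with -1.62 in the lower-share and 0.98 in the higher-share libraries. For the whole list the counts were 7 and 0 without scaling (1 at an unadjusted p under 0.05 toward 4 months in limma), 3 and 3 within the lower share and 3 and 1 within the higher share.

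Genes of glycolysis and glycogen breakdown were mostly higher at 4 months. Of 32 genes tested, 22 were higher at 4 months and 2 at birth, and the median difference was -2.41. LDHA (ENSSSCG00000013366), the muscle lactate dehydrogenase subunit, ranged from 251 to 1371 (median 484) in newborns and from 5439 to 10728 (median 8386) in older pigs. Newborn 402 was the highest of its group and was still below every older pig. The difference was -4.02 ± 0.36 (adjusted p = 1.96e-06, limma). PYGM, muscle glycogen phosphorylase, was at 415 to 1435 (median 700.1) and 4548 to 19030.2 (median 7656), and PHKA1, the muscle subunit of the kinase that activates it, at 13.1 to 29.9 (median 14.3) and 129 to 237 (median 192). Glycerol-phosphate dehydrogenase GPD1, the glycolysis activator PFKFB3 and pyruvate kinase PKM differed by -3.42, -3.39 and -3.17. GAPDH, often taken as a reference transcript, was 6.95-fold higher at 4 months, when it was second only to ACTA1 in deposited RPKM with 4.53% of the sum. Without scaling GAPDH still differed by -1.90 and LDHA by -3.13, and 20 genes of the list were higher at 4 months and 6 at birth. Toward birth the list had 5 genes within the lower-share and 0 within the higher-share libraries, where 0 had an unadjusted p under 0.05 in limma.

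Apart from ALDOC, the isoforms typical of other tissues that are given here were not called higher at 4 months. PGAM1, the non-muscle phosphoglycerate mutase, was 2.06-fold higher at birth, at 37.8 to 72.2 (median 54.9) against 20.5 to 38.3 (median 22.5). LDHB, the heart-type subunit, was 1.64-fold higher at birth, a call that ended without newborn 412 or 429 or without pig 708 or 758. ENO1 (0.17 ± 0.21), PFKP (-0.07 ± 0.17), HK1 (0.51 ± 0.15) and PYGL (-0.41 ± 0.18) were not called. Ratios of the muscle isoform to its counterpart did not overlap between the ages. LDHA was 3.01 to 26.5 times LDHB in newborns and 87.2 to 274 times at 4 months. PGAM2 over PGAM1 went from between 11.7 and 40.4 to between 140.3 and 713. ENO3 over ENO1 went from between 16.0 and 50.5 to between 129 and 302. ALDOC, brain aldolase by its name, rose by 9.75-fold to 1363 to 5911 (median 2319). The muscle form ALDOA was not found by symbol, and reads shared between these paralogues cannot be told apart. HK2, the insulin-responsive hexokinase, stayed uncalled at 0.12 ± 0.32.

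Genes of fatty acid oxidation were more often higher at birth, 14 of 24 tested, with 2 higher at 4 months and a median of 0.80. PDK4, which shuts pyruvate out of the mitochondrion, was at 74.9 to 379 (median 298) in newborns and 3.91 to 109 (median 22.7) in older pigs. Pig 748 lay inside the newborn range, the difference was 3.35 ± 0.66, and within the lower-share libraries the call was lost (2.59). ANGPTL4, a target of the PPAR receptors that inhibits lipoprotein lipase, was at 8.44 to 47.3 (median 30.8) and 2.48 to 5.57 (median 2.92) with no overlap. FABP3, the fatty acid carrier of heart and oxidative muscle, was 4.65-fold higher at birth, ACSL1 (acyl-CoA synthetase) 3.62-fold and CPT1A, the liver-type carnitine transferase, 3.55-fold. In the matrix, the very-long-chain dehydrogenase ACADVL was 2.25-fold and the beta subunit of the trifunctional protein, HADHB, 2.25-fold higher at birth. UCP3, the uncoupling protein of muscle, and ACADS, the short-chain dehydrogenase, were the 2 genes higher at 4 months, at -1.01 ± 0.25 and -0.84 ± 0.17. Both of these calls were lost without scaling. Without scaling 22 genes of the list were higher at birth. Within the higher-share libraries 7 were and within the lower-share libraries 15.

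The respiratory chain moved little as a list. Of 32 nuclear-coded genes tested, 4 were higher at birth and 1 at 4 months, and the median difference was 0.12. ATP5MC3 (a subunit of the ATP synthase ring), CYCS (cytochrome c) and COX7A2 (the non-muscle form of a cytochrome oxidase subunit) differed by 1.07 ± 0.14, 0.99 ± 0.20 and 0.95 ± 0.16. The count depended on the scaling. With quantile normalization 16 of these genes were higher at birth and without scaling 29. Within the lower-share libraries 7 were, and within the higher-share libraries 0, with 3 at an unadjusted p under 0.05 in limma. Mitochondrial transcripts were among the most abundant at both ages. COX3 held 4.67% of the deposited RPKM at birth and 4.03% at 4 months, and COX1 4.52% and 2.73%. On scaled values COX1 was at 18877 to 24844 (median 21618) in newborns and 19873 to 32381 (median 22535) in older pigs, a difference of -0.14 ± 0.18 that did not pass the test.

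Among ubiquitin ligases and proteasome subunits, 19 of 39 were called higher at 4 months and 1 at birth, and 19 were not called (median -0.62). This balance rests on the scaling, since without it 11 were higher at birth and 6 at 4 months. After ASB2, the muscle ligase subunit FBXO40 was at 2.55 to 12.01 (median 4.92) in newborns and 51.2 to 159 (median 76.9) in older pigs. FBXO32 (atrogin-1), a ligase subunit of muscle atrophy, was at 0.259 to 2.37 (median 0.724) and 3.87 to 41.5 (median 11.3). TRIM63 (MuRF1), the other ligase known from atrophy, was at 19.7 to 42.1 (median 29.6) and 171 to 501 (median 289). The groups did not overlap for any of the 3. Of the proteasome itself PSMD11, a lid subunit, was 2.55-fold higher at 4 months, while every other proteasome subunit tested differed by less than 2-fold. TRIM55 (MuRF2) was the 1 gene higher at birth, by 0.83 ± 0.23, and was not called within the lower-share libraries. Within the higher-share libraries 9 genes of the list were higher at 4 months, and under quantile normalization 13, with 3 at birth.

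Autophagy and lysosome genes had 15 of 26 called higher at 4 months and 0 at birth (median -0.70). Toward birth 0 genes of this list reached an unadjusted p under 0.05 in limma, and limma's voom on recovered reads called 0. Without scaling the list was even, with 2 genes called in each direction and 6 at an unadjusted p under 0.05 toward birth. ULK1, the kinase that starts autophagy, was at 5.81 to 16.0 (median 11.2) in newborns and 29.2 to 59.9 (median 44.5) in older pigs, a 3.99-fold difference without overlap. FOXO3, a transcription factor that drives autophagy and atrophy genes, was 3.03-fold and the cargo receptor SQSTM1 2.40-fold higher at 4 months, both without overlap. MAP1LC3B, which coats the autophagosome, followed with -1.20 ± 0.14. FOXO1 was not called (-0.57 ± 0.28). Within the higher-share libraries 6 genes of the list were called, all higher at 4 months.

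**Figure D4:**
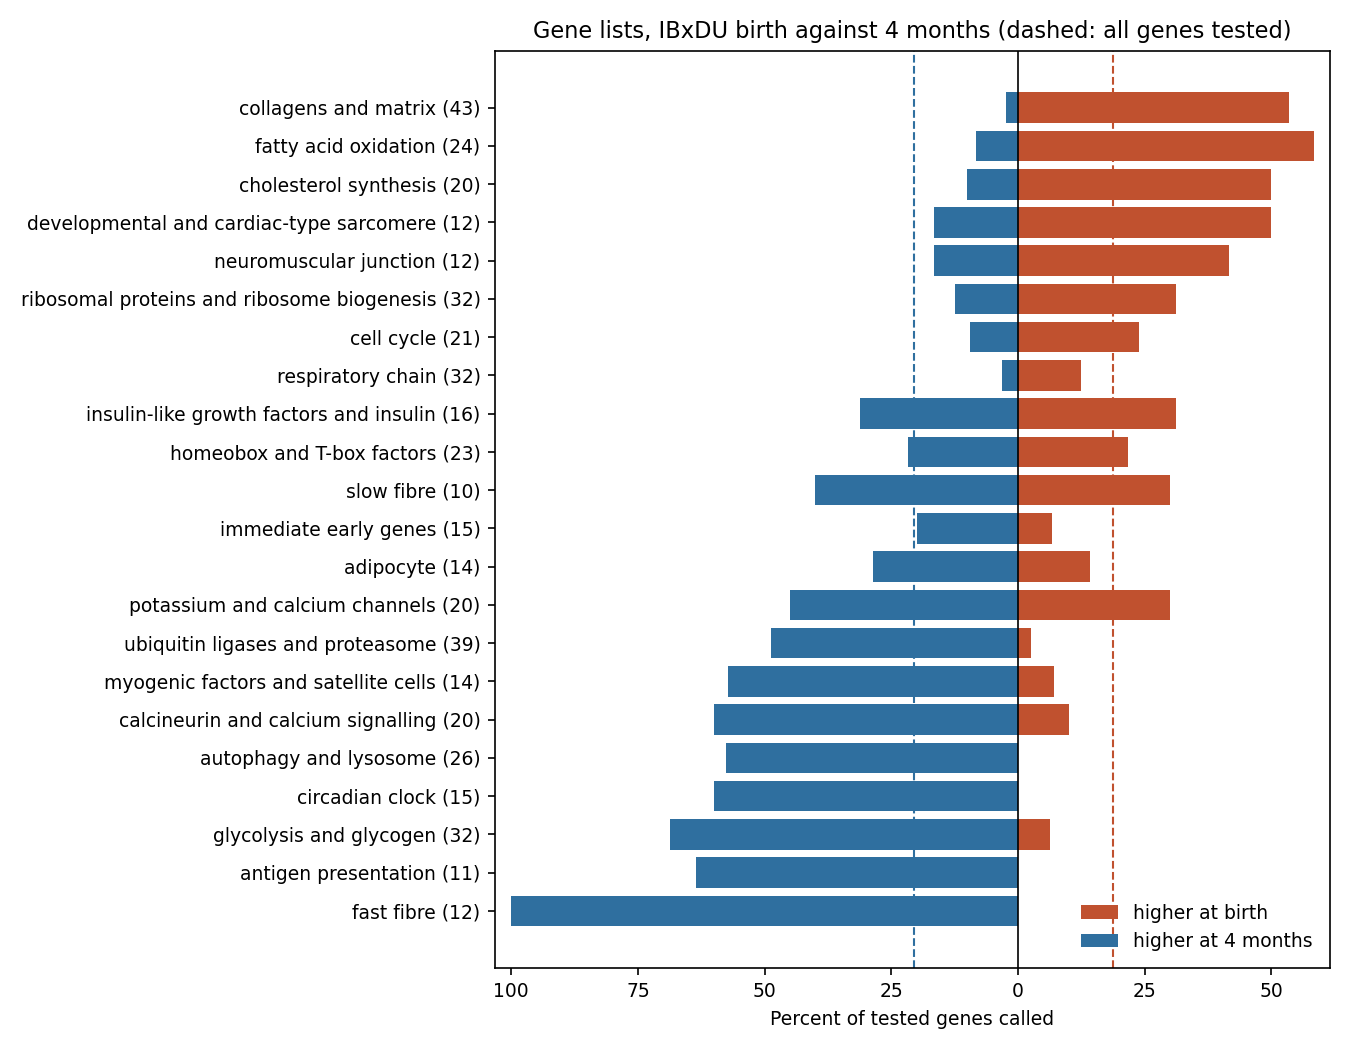
Percentage of the tested genes of each list that were called higher at birth (bars to the right) and higher at 4 months (bars to the left), with the number of genes tested beside the name. Dashed lines mark the percentages over all genes tested, 18.7% and 20.5%. Fast fibre genes reach 100% toward 4 months, and collagens and matrix and fatty acid oxidation lead toward birth among the larger lists.

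Collagens and other matrix genes were higher at birth in 23 of 43 tested, and 1 was higher at 4 months (median 0.78). POSTN, periostin, a matrix protein of growing and healing tissue, was at 8.63 to 38.1 (median 23.7) in newborns and 1.05 to 3.82 (median 2.30) in older pigs (3.13 ± 0.41). FBN2, the fibrillin of fetal microfibrils, was at 1.81 to 3.76 (median 2.42) and 0.130 to 0.324 (median 0.246). TNN, tenascin N, was at 0.0624 to 2.96 (median 0.441) in newborns and listed at 0 in all but 1 older pig, and its call was lost within the higher-share libraries. ELN (elastin) differed by 2.09 ± 0.22 and COL1A1, a chain of the main fibrillar collagen, by 2.05 ± 0.27. COL4A1 and LAMA2, of the basement membrane around each fibre, were 1.83-fold and 2.20-fold higher at birth. COL3A1 (0.69 ± 0.28), DCN (decorin, -0.21 ± 0.26) and FN1 (fibronectin, -0.24 ± 0.22) did not pass the test. COL8A1 was the gene higher at 4 months, at 0.269 to 1.28 (median 0.574) in newborns and 0.766 to 2.27 (median 1.74) in older pigs. Without scaling 36 genes were higher at birth. Within the higher-share libraries 15 were, within the lower-share libraries 17 of 42, and without newborn 412, which stood apart for nerve and cartilage markers, 20.

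The cell cycle list, of 21 genes tested, had 5 higher at birth and 2 at 4 months (median 0.52). The shares were 23.8% and 9.5%, against 18.7% and 20.5% over all genes tested. CCND2, the cyclin D of muscle precursors and other tissues, was at 3.92 to 5.37 (median 4.70) in newborns and 0.514 to 1.09 (median 0.889) in older pigs (2.36 ± 0.19). CCND1 and MCM4, of the replication licensing complex, followed with 1.10 ± 0.25 and 1.08 ± 0.24. CDKN2C (p18), an inhibitor of the kinases that bind cyclin D, went the other way, from 0.860 to 3.93 (median 1.73) to 16.6 to 30.1 (median 20.8), a 10.9-fold difference with no overlap. MKI67, the proliferation marker, was low at both ages, at 0.327 to 1.32 (median 0.407) and 0.333 to 0.584 (median 0.432), and did not pass the test. A further 9 genes of the list stayed under 0.5 at both ages. Without scaling 15 genes were higher at birth and 1 at 4 months, and within the higher-share libraries 2 and 1.

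Ribosomal proteins and ribosome biogenesis separated into parts. Of 32 tested, 10 were higher at birth and 4 at 4 months (median 0.21). All but 1 of the 10 were MYC or nucleolar factors. MYC, the transcription factor of growth, was at 16.2 to 36.9 (median 24.8) in newborns and 4.75 to 9.08 (median 5.92) in older pigs. The box C/D snoRNP proteins NOP58 and NOP56 were 3.34-fold and 3.11-fold higher at birth, and the nucleolar phosphoprotein NPM1 2.49-fold. RPL3 was the ribosomal protein among the 10, at 282 to 661 (median 483) against 118 to 159 (median 137). The 4 genes higher at 4 months were all ribosomal proteins, led by RPLP1 of the stalk (-1.15 ± 0.19). Without scaling none of these 4 was called, and 21 genes of the list were higher at birth. The list also followed the kind of library, with 17 genes higher at birth within the lower share and 5 within the higher share.

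In the insulin-like growth factor and insulin list 5 of 16 genes were higher at birth and 5 at 4 months. Each share was 31.2%, against 18.7% and 20.5% over all genes tested. DLK1 (ENSSSCG00000028773) was at 41.4 to 154 (median 91.3) in newborns and 1.90 to 7.75 (median 4.25) in older pigs. A second ID of that symbol, ENSSSCG00000027337, differed by 1.48 and was not called. IGFBP3, the main carrier of these growth factors in blood, was at 4.07 to 8.75 (median 4.63) and 0.597 to 1.31 (median 0.987). IGF1 itself did not pass the test, at 1.24 to 2.31 (median 1.48) in newborns and 0.666 to 1.66 (median 1.31) in older pigs. IRS1, the adaptor of the insulin receptor, was at 2.07 to 5.86 (median 3.43) at birth and 17.5 to 37.4 (median 30.2) at 4 months, an 8.04-fold difference with no overlap. SLC2A4 (GLUT4), the insulin-regulated glucose transporter, was 2.92-fold higher at 4 months, again with no overlap. IGF2 was not found by symbol and is not analysed here. The even split held under the scaling used, while without scaling 10 genes were higher at birth and 2 at 4 months. Within the higher-share libraries the counts of this list were 2 and 3.

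Cholesterol synthesis had 10 of 20 genes higher at birth and 2 at 4 months (median 0.56), and the 2 exceptions were large. SQLE, squalene epoxidase, was at 2.59 to 4.56 (median 4.20) in newborns and 0.294 to 0.985 (median 0.716) in older pigs. FDFT1 (squalene synthase), the step just before SQLE, went from 6.88 to 22.7 (median 11.7) at birth to 38.1 to 108 (median 57.4) at 4 months (-2.31 ± 0.29). IDI1, the isomerase further upstream, differed by -1.65 ± 0.24. Both kept their direction and their call without scaling, at -1.42 and -0.76. Without scaling 14 genes of the list were higher at birth and 2 at 4 months. Within the lower-share libraries 5 of 19 were higher at birth and 3 at 4 months, with a median of 0.056. Within the higher-share libraries the counts were 7 and 2 of 20, with a median of 0.79.

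Adipocyte and lipogenic genes had 2 of 14 higher at birth and 4 at 4 months. The shares of 14.3% and 28.6% compare with 18.7% and 20.5% over all genes tested. SCD, stearoyl-CoA desaturase, which makes monounsaturated fatty acids, was at 2.14 to 12.1 (median 6.29) in newborns and 19.5 to 92.3 (median 40.8) in older pigs (-2.85 ± 0.45). FASN, fatty acid synthase, was at 4.08 to 22.9 (median 8.84) and 12.6 to 81.0 (median 32.6) and overlapped between the ages. PLIN4, a coat protein of lipid droplets, was 2.49-fold higher at 4 months. PCK1, the enzyme of gluconeogenesis and glyceroneogenesis, was at 0.867 to 7.96 (median 2.65) in newborns and 0.0446 to 0.575 (median 0.296) in older pigs. ACACA, ACLY, PPARG and PLIN1 were not called, with differences from -0.64 for PLIN1 to 0.78 for PPARG. FASN lost its call within either kind of library, and PLIN4 without scaling. Without scaling the list had 4 genes higher at birth and 1 at 4 months, and within the higher-share libraries 1 and 2.

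Clock genes were higher at 4 months in 9 of 15 tested and at birth in 0 (median -1.02), with 0 at an unadjusted p under 0.05 toward birth and 0 called there by limma's voom. Without scaling 3 were higher at birth and 4 at 4 months. The lower-share libraries gave 1 and 9, and the higher-share libraries 0 and 6, with 0 at an unadjusted p under 0.05 toward birth. NFIL3, CIART and BHLHE41, all repressors in the clock network, led with -2.65 ± 0.26, -2.42 ± 0.28 and -2.15 ± 0.25. NFIL3 was at 2.98 to 8.86 (median 3.71) in newborns and 17.3 to 35.5 (median 28.2) in older pigs. CRY2, a core repressor, was 3.13-fold and BMAL1, the core activator, 2.35-fold higher at 4 months. PER1 (-0.29 ± 0.27) and PER2 (0.55 ± 0.34) did not pass the test. The hour of sampling is not given in the sources used here. Among immediate early genes 3 of 15 were higher at 4 months and MYC at birth. The share higher at 4 months was about that over all genes tested, and the share higher at birth was below it. FOS, which is induced within minutes of a stimulus, was at 12.4 to 38.8 (median 31.0) in newborns and 24.9 to 335 (median 151) in older pigs, with pig 748 inside the newborn range. The immediate early list had 3 genes higher at birth and 0 at 4 months without scaling and 1 and 0 in the lower-share libraries. At an unadjusted p under 0.05 toward 4 months it had 1 and 2 genes.

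Homeobox and T-box genes were called in both directions, about as often as all genes tested. Of 23 homeobox and T-box genes tested, 5 were higher at birth and 5 at 4 months, a share of 21.7% each way that lies near the 18.7% and 20.5% over all genes tested. Without scaling the counts were 13 and 4. HOXC10 was at 0.801 to 8.42 (median 2.29) in newborns and 26.3 to 92.5 (median 46.3) in older pigs, a difference of -4.18 ± 0.47. HOXC8 was at 1.17 to 1.99 (median 1.62) and 7.17 to 18.5 (median 13.3), and HOXC6 was 4.67-fold higher at 4 months. LBX1, a homeobox factor of migrating muscle precursors, was at 0.181 to 1.88 (median 0.496) and 5.63 to 18.5 (median 8.74). None of these 4 overlapped between the ages. Some HOX genes of lower paralogue number went the other way. Members that were not called are not given here, and an order by paralogue number was not tested. HOXA4 and HOXD4 differed by 1.53 ± 0.36 and 1.38 ± 0.36, HOXA5 by 0.95 ± 0.23 and HOXC4 by 1.13 ± 0.28. Within the lower-share libraries 1 gene of the list was higher at birth and 7 at 4 months. HOX genes mark position along the body axis in the embryo and keep much of that pattern later.

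Channels and calcium handling were remodelled in both directions. Of 20 potassium and calcium channel genes, 6 were higher at birth and 9 at 4 months. KCNE5 (ENSSSCG00000012582) was at 8.87 to 37.8 (median 13.8) in newborns and 0.0848 to 0.903 (median 0.315) in older pigs. KCNC4, a voltage-gated potassium channel, was 9.02-fold higher at birth. KCNN1, a small-conductance calcium-activated channel, was at 0.0515 to 1.33 (median 0.190) in newborns and 2.49 to 8.88 (median 4.05) at 4 months. Of the genes of calcium release, TRDN (triadin) differed by -2.05 ± 0.23, CACNG1 (the gamma subunit of the voltage sensor) by -1.75 ± 0.27 and CACNA1S (the pore of that sensor, also on the fast fibre list) by -1.62 ± 0.30. RYR1, JPH2 and STAC3 were not found by symbol and are not analysed here. The channel list had 7 and 5 genes called without scaling and 3 and 6 in the higher-share libraries. Of 20 genes of calcineurin and calcium signalling, 12 were higher at 4 months and 2 at birth (median -0.98). S100A1, a calcium sensor that acts on the release channel, was at 1.61 to 9.21 (median 2.58) and 19.2 to 49.9 (median 32.0), and CALM3, a calmodulin gene, was 6.02-fold higher at 4 months. The 2 higher at birth were the NFAT factors NFATC4 (1.36 ± 0.18) and NFATC2 (0.96 ± 0.20). Without scaling 5 genes of this list were higher at birth and 7 at 4 months.

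Markers of some other cell types moved with age as well. Of 14 T and NK cell markers found 9 were tested, and 7 of these were called higher at 4 months (median -2.20). GNLY was at 0.0485 to 0.514 (median 0.169) in newborns and 1.09 to 14.3 (median 9.90) in older pigs, and CD8A, of cytotoxic T cells, at 0.0129 to 0.0562 (median 0.0264) and 0.239 to 1.38 (median 0.959). Both passed the filter at 0.5 RPKM only through the older pigs. With the filter at 1 RPKM the count was 3 of 5 and the median -0.88. The median was -0.97 at a pseudocount of 0.5 RPKM and -3.50 at 0.01. The summed level of the list without CD8B was 1.52 to 4.84 in newborns and 5.58 to 25.9 at 4 months. CD8B itself followed the kind of library, and with the kind held fixed its difference was toward 4 months. It was at 100.1 or more in each of the 6 higher-share libraries and at 0.709 or less in each of the other 6. Myeloid markers were higher at 4 months in 6 of 9, among them TYROBP (-1.69 ± 0.35) and C1QA (-1.42 ± 0.35), and their sum was 16.3 to 65.5 in newborns and 54.8 to 115 in older pigs. Without scaling 0 of the 9 were called in either direction, with 1 at an unadjusted p under 0.05 toward 4 months and 2 toward birth in limma. In the higher-share libraries alone 0 of these 9 were called and 5 had an unadjusted p under 0.05 in limma. Antigen presentation genes were higher at 4 months in 7 of 11 (median -1.03), and SLA-DQB1, a class II chain, was at 9.80 to 21.4 (median 10.8) and 50.4 to 66.9 (median 53.3). Without scaling 4 of the 11 were higher at 4 months and 1 at birth, and the T and NK cell count was 5 of 8.

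Erythroid markers were higher at birth in 6 of 7 tested (median 1.90). The count was 2 of 7 within the higher-share libraries and 3 of 5 within the lower-share libraries. The beta-globin HBB was at 168 to 558 (median 305) in newborns and 48.8 to 263 (median 115) in older pigs, and ALAS2, the erythroid enzyme of haem synthesis, at 1.497 to 4.75 (median 3.50) and 0.179 to 2.13 (median 0.926), and both overlapped. Their summed level was 384 to 1145 at birth and 109 to 600.2 at 4 months. Schwann cell markers were higher at birth in 4 of 6 (median 1.66). The summed level was 39.6 to 269 in newborns and 11.7 to 18.5 in older pigs, and newborn 412 was far above the rest. The same newborn had a summed level of 45.8 for cartilage and bone markers, against 6.83 or less in any older pig, and only BGLAP of these was called. Endothelial markers had 1 of 10 called in each direction, and without scaling 7 at birth. Fibroblast markers were higher at birth in 2 of 6 (33.3%) and at 4 months in 1 (16.7%), and PDGFRA is listed at 0 in every library. Of the marker genes of the muscle fibre itself 5 of 6 were higher at 4 months (2 of 6 without scaling), and all 6 were abundant at both ages, with desmin (DES) at 2157 to 3213 (median 2504) in newborns. The part of these cell types in the gene lists above was not tested.

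Purebred IB pigs of the same ages allowed 1 test of what is particular to the crossbreds, the interaction of age and genetic type over all 24 libraries. It passed an adjusted p of 0.05 in 3 of 12128 genes (0.0247%), ABRA, SPHK1 and ENSSSCG00000016982, each at an adjusted p of 0.0456 from limma. An unadjusted p under 0.05 was reached by 1651 genes. ABRA, an actin-binding activator of serum response factor signalling in striated muscle, was on this scaling at 15.5 to 103 in IBxDU newborns and 102 to 440.4 in IBxDU older pigs. In IB pigs it was at 132 to 417 at birth and 74.6 to 164 at 4 months. Its age difference was -2.10 ± 0.38 in IBxDU and 0.89 ± 0.38 in IB, a difference of -2.99 ± 0.54. SPHK1, a kinase that makes sphingosine 1-phosphate, differed by -0.44 ± 0.18 with age in IBxDU and by 0.99 ± 0.18 in IB. ENSSSCG00000016982, which has no symbol here, was lower at birth in both, with -0.70 ± 0.13 in IBxDU and -1.72 ± 0.13 in IB. The count was 0 without scaling and under quantile normalization, 16 in a model that includes the kind of library, 192 without newborn 412 and 0 to 7 without any 1 of the other libraries. No other gene named here passed this test.

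**Figure D5:**
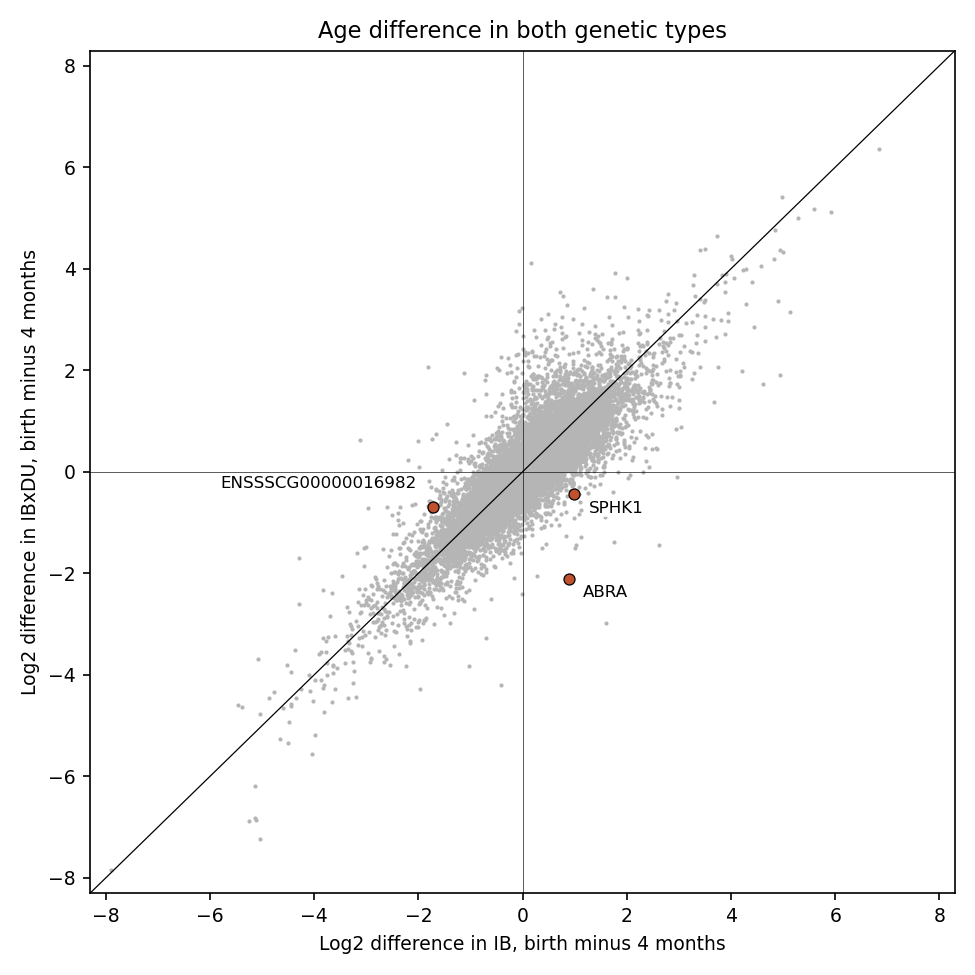
Log2 difference between birth and 4 months in IBxDU (vertical axis) against the same difference in IB (horizontal axis) for 12128 genes, from 1 fit over all 24 libraries. The 3 genes that passed the interaction test are marked and named, and the diagonal is the line of equal differences. ABRA and SPHK1 have differences of opposite sign in the 2 genetic types.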

How the data were processed

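The authors used CLC Genomics Workbench to map the reads, with Sscrofa10.2 as the reference, and the deposited file holds RPKM per gene and animal. All 24 columns were matched to samples by animal number (0 columns were not used). Symbols came from a table of gene names (11450 IDs) and from tables of the study (396), and where a symbol had several IDs the one with the highest mean was used. To scale the libraries, the log ratios of each to the mean library were averaged after trimming 30% at both ends. Tests used limma 3.58.1 in R 4.3.3 on log2(scaled RPKM + 0.1), with the p of at most 0.01 and 1.5-fold threshold of the study's methods, and Benjamini-Hochberg adjustment over all genes tested. The interaction was tested in 1 fit over 24 libraries. Scripts were tested on simulated data.

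Genes were named by rule: up to 3 called genes per direction and list with the largest differences, fixed counterpart pairs, the 10 largest non-overlapping changes per direction among genes with a symbol, the most abundant genes and every interaction gene. Other members of the lists serve as examples, and some genes that the rule names are not reported here. Members and lists were chosen with earlier results of these data known.

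Multiplying RPKM by gene length and library total gave whole reads within 0.001 for 100% of the 17846 genes above 0, and voom on these reads, an alternative added after the data were seen, called 2137 genes at birth and 2477 at 4 months. Whether reads or read pairs were counted is not given in the sources used here. Each library is 1 pig, so the p-values rest on the spread between libraries of the same age. That spread holds differences between animals and also between the kinds of library, because the kind is not a term of the main fit. Other alternatives were the scaling, the pseudocount, the filter, the variance model, the kind of library and each library left out.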

Additional observations from a re-analysis of the deposited data

Results flagged for a closer look

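In 342 groups of 6 pigs, those of the genes named, 25 had a lowest or highest library that stood apart from the other 5 by Dixon's test, where chance gives about 1 group in 20. Pig 732 held 9 of the 25 values and also had the smallest scaling factor of the 12 libraries, 0.477 against 0.702 to 0.926 in the other older pigs. The part of that factor in these values was not tested. The pig stood above its group in the abundant transcripts ACTA1 (261452), GAPDH (105634), COX3 (74046.8), PKM (15118) and CASQ1 (12364). It was also the highest in ENO1 (142), ACADS (109.5), MYMK (17.4) and MYL7 (0.135), all in scaled RPKM.

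Newborn 412 stood above the other newborns in the slow-fibre genes TNNT1 (2571), TNNI1 (2098) and MYOZ2 (1088), and in S100A1 at 9.21. In MYH7 the highest newborn was 426, at 184 against 170 in newborn 412. The nerve and cartilage markers of newborn 412 were the highest of the newborns as well. Among the older pigs, 702 was the highest in ACTC1 (141) and the lowest in MYL1 (13747), ENSSSCG00000030134 (475) and CALM3 (307). Newborn 402 was the highest in KCNN1 (1.33) and PHKA1 (29.9) and the lowest in ANGPTL4 (8.44), and pig 714 was the highest of its group in ANGPTL4 (5.57). Single values apart were those of pig 748 in GNLY (1.09, the lowest), newborn 426 in SQLE (2.59, the lowest), newborn 429 in SQSTM1 (152, the highest) and pig 758 in TNN, which is listed at 0 in the other 5 older pigs and at 0.00982 in this one.

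The age difference depended on genetic type in 3 genes at an adjusted p of 0.0456 from limma. The age difference in IBxDU minus that in IB was -2.99 for ABRA, -1.42 for SPHK1 and 1.02 for ENSSSCG00000016982 on the log2 scale. These calls are among those that the processing changes.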

How the results depend on the processing

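The 2248 genes higher at birth and 2457 at 4 months stayed within 1.5 times of these counts under quantile normalization, median of ratios, pseudocounts of 0.5 and 0.01 RPKM, no filter or a filter at 1 RPKM, limma without trend, the kind of library in the model, the lower-share libraries alone, a fit over 24 libraries, an adjusted p alone and voom. Leaving out 1 library gave 1995 to 2288 and 2244 to 2523. Without scaling the counts were 6733 and 637, and in the 6 higher-share libraries alone 1018 and 1365, against 2043 and 2343 in the 6 lower-share libraries. The 3 interaction genes became 0 without scaling and under quantile normalization, 16 with the kind of library in the model, and 0 to 192 when 1 library was left out, the 192 without newborn 412. Directions that turned were, without scaling, ACADS (0.054), COX1 (0.75), DES (0.14), PFKP (0.80) and ENSSSCG00000016982 (0.18). Under quantile normalization they were COX1 (1.08), DES (0.58) and RPLP1 (0.20). In the lower-share libraries MUSK turned to -1.62, and CD8B turned to -1.57 in the higher-share libraries and -1.62 with the kind in the model. The cause was not tested. Of the 144 called genes named, 24 lost the call without scaling, 14 under quantile normalization and 28 in the higher-share libraries alone, while 2 (LDHB and DES) lost it without some single library. No list count of 4 or more moved by over 1.5 times when 1 library was left out. No paired analysis was possible because the animal numbers of the newborns and the older pigs differ. Genes under 0.5 RPKM at both ages rest on few reads and were left out of the main fit by the filter. With no filter 2644 genes were called higher at birth and 2611 at 4 months.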
